A study of Rattus norvegicus with 64 samples.

Results

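The nucleus accumbens (ACB) of 16 male Sprague Dawley rats was examined by bulk RNA-Seq, 8 rats given acesulfame potassium (ACE-K) and 8 given water (CTL). They were chosen by their labels, as the columns of rats C91 to C106 in the ACB count table, and make up 16 of the 64 samples of the series. The even-numbered rats were ACE-K and the odd-numbered rats CTL. ACE-K rats drank the sweetener daily from postnatal day 26 until postnatal day 80, at about 15 mg/kg of body weight. CTL rats received the same volume of reverse osmosis water. All brains were collected at postnatal day 80, and the samples were tissue punches, which hold every cell type of the punched tissue. The rats were therefore all young adults at collection, of 1 outbred stock, and each is a separate animal. The dorsal hippocampus (HPCd) of the same 16 rats and the ACB of 16 females were used beside them where a comparison needed them.

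The accumbens is the ventral part of the striatum. Most of its neurons are GABAergic medium spiny neurons, which receive dopamine from the midbrain and glutamate from the cortex, hippocampus and amygdala, and the region is known for its part in the response to palatable food and sweet taste. ACE-K is a low-calorie sweetener that binds the sweet taste receptor and leaves the body largely unmetabolised. The comparison asked which genes of the accumbens differed in level after voluntary ACE-K intake through adolescence and early adulthood, up to the day of collection. The deposited files list genes by Ensembl ID only, and no gene name is paired with an ID, so results are given by ID, no function is attached to them, and the markers of the accumbens and of its cell types could not be looked up. In bulk tissue, fewer cells of a type and less RNA per cell cannot be told apart.

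The ACB table held from 302935 to 416869 counts on genes per male rat, where the HPCd of the same rats held from 16078642 to 27651766. Of 32623 IDs, 14806 had no count in any ACB male, and 5262 were tested, namely those whose normalized count came to 5 or more in 3 or more rats. The median tested ID had 7.88 counts per rat. The 10 most counted IDs took 42.5% of all ACB counts and 0.695% of the HPCd counts of the same rats. One ID that separates the sexes, ENSRNOG00000037911, had at most 2 counts in each male and at least 674 in each female of the ACB table. The columns thus parted as their sex labels do. Since the ID is not paired with a gene name, this does not by itself show which side is male.

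Among the 5262 tested IDs, none passed adjustment for the number tested. None was thus shown to differ between ACE-K and CTL males by more than the spread between rats. An unadjusted p under 0.05 was reached by 232 of the 5262 IDs (4.41%, where 5% is the share the threshold itself allows). Of these, 217 (4.12% of IDs tested) also differed by 0.4 or more on the log2 scale in either direction, and they are called DEGs here, for differentially expressed genes, by the thresholds the study used for suggestive DEGs. Among the DEGs, 89 were higher in ACE-K rats (1.69% of IDs tested) and 128 lower (2.43%). The median log2 fold change was 0.71 among the higher and -0.72 among the lower DEGs. After Benjamini-Hochberg adjustment of the p values of edgeR's quasi-likelihood test, 0 IDs had an adjusted p under 0.05, and the smallest adjusted p was 0.406. DESeq2's Wald test on the same IDs gave 180 IDs at an unadjusted p under 0.05, 163 DEGs and 0 IDs at an adjusted p under 0.05.

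Among the DEGs higher in ACE-K rats, ENSRNOG00000037299 had the smallest p. It had from 18 to 39 counts in ACE-K rats (median 20) and from 10 to 16 in CTL rats (median 13). In CPM (counts scaled to the normalized library size), its level was 67.7 ± 19.6 in ACE-K rats (SD, n = 8) and 38.1 ± 7.72 in CTL rats (SD, n = 8). Every ACE-K rat was above every CTL rat. The log2 fold change was 0.83 (SE 0.21, 95% confidence interval 0.41 to 1.26, edgeR adjusted p = 0.653). C106 had the highest value, 109.4 CPM, and without this rat the log2 fold change was 0.71 (edgeR adjusted p = 0.930). In the HPCd of the same rats this ID had from 57 to 130 counts, and its log2 fold change there was -0.16 (95% confidence interval -0.44 to 0.12).

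ENSRNOG00000015941 was the next. It had from 21 to 40 counts in ACE-K rats (median 29.5) and from 13 to 25 in CTL rats (median 18.5), so that the groups overlapped at their edges. Its level was 89.8 ± 19.6 CPM in ACE-K and 54.2 ± 13.5 CPM in CTL rats (SD, n = 8 each), and its log2 fold change was 0.73 (SE 0.20, edgeR adjusted p = 0.900). Here C106 lay inside the range of the other ACE-K rats, and the log2 fold change stayed at 0.73 without it. The HPCd gave a log2 fold change of -0.01 (95% confidence interval -0.16 to 0.14) for this ID.

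Among the DEGs lower in ACE-K rats, ENSRNOG00000017163 had the smallest p. ACE-K rats had from 3 to 6 counts (median 4) and CTL rats from 6 to 20 (median 10.5). The groups overlapped narrowly in CPM, with ACE-K rats from 8.26 to 19.0 and CTL rats from 18.2 to 47.6. The log2 fold change was -1.20 (SE 0.28, 95% confidence interval -1.77 to -0.63, edgeR adjusted p = 0.406). In the HPCd the same ID had from 3568 to 6453 counts per rat, and ACE-K and CTL rats differed there by 0.02 on the log2 scale (95% confidence interval -0.11 to 0.15). The highest ACB value among the 16 males was that of C101, a CTL rat, and without it the log2 fold change was -1.09.

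ENSRNOG00000049423 rested on the fewest counts, and it passed the filter only through CTL rats, the group in which it was higher. It had from 0 to 2 counts in ACE-K rats (median 0.5), 4 of which were at 0, and from 1 to 8 in CTL rats (median 4.5). A count of 0 allows up to 3 counts, or 8.26 to 9.36 CPM in these 4 libraries, which reaches into the range of the CTL rats. The fitted log2 fold change was -2.56 (SE 0.60, edgeR adjusted p = 0.406), and for an ID with so few counts its size depends on the prior count of the fit. No HPCd library of these rats had a count on this ID, which at the HPCd depth allows at most 0.107 to 0.184 CPM.

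**Figure D1:**
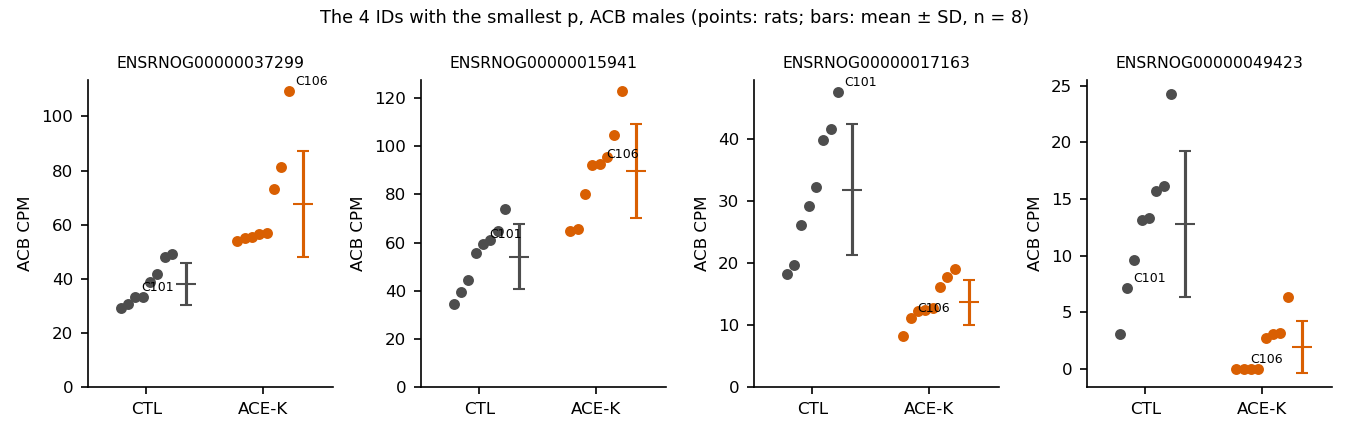
Level in CPM (vertical axis) of the 2 higher and the 2 lower DEGs with the smallest p in each male rat, by group (points, with C101 and C106 labelled), with mean ± SD (n = 8) beside them. ENSRNOG00000037299 is the only 1 of the 4 in which the groups do not overlap. ENSRNOG00000049423 is at 0 in 4 ACE-K rats.

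The ranges of the groups did not overlap at 2 of the 5262 IDs (0.038%), both of them higher DEGs. Beside ENSRNOG00000037299, this was ENSRNOG00000016474, which is named because the count is small, after its values were seen. It had from 5 to 12 counts in ACE-K rats and from 2 to 5 in CTL rats, or from 15.4 to 32.3 CPM and from 6.56 to 15.3 CPM, so that 1 count more in a CTL rat would close the gap. Its log2 fold change was 0.71 (SE 0.30, edgeR adjusted p = 0.975). Without C106, 3 of 5158 IDs did not overlap (0.0582%), and ENSRNOG00000016474 was no longer among them. The other two were ENSRNOG00000017839, with from 12 to 20 counts in the 7 remaining ACE-K rats against 19 to 31 in CTL rats, and ENSRNOG00000021088, with from 17 to 29 against 10 to 19.

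Most DEGs had few counts, as did most IDs tested. Of the 217, 123 had a mean under 10 counts per rat, 81 had 10 to 50, 7 had 50 to 200 and 6 had at least 200. The IDs tested in these classes were 3082, 1571, 414 and 195. The share of tested IDs called was 3.99%, 5.16%, 1.69% and 3.08% in these classes. The size of change that was called moved with the counts. The median SE of the log2 fold change fell from 0.37 under 10 counts to 0.13 at 200 counts or more, and the DEGs of the first class had a median absolute log2 fold change of 0.87, those of the last 0.50. Of the 6 DEGs with at least 200 counts, ACE-K rats had more of 5 and less of 1. In 4 of the 5 higher ones C106 had the highest count of the 16 males, and these 4 did not reach an unadjusted p under 0.05 without it (edgeR p from 0.0525 to 0.504).

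One ACE-K rat, C106, stood apart from the other males. Among the 5262 tested IDs it had the highest normalized count of the 16 rats at 966 and the lowest at 1051. The other rats had the highest at 169 to 655 and the lowest at 209 to 427. It exceeded 2 times the count of every other male at 68 IDs with at least 20 counts, where no other rat did so at more than 1. These IDs held 2.30% of its counts and from 0.715% to 0.919% of the counts of the other males. In the HPCd of C106 the same IDs held 1.52% of the counts, inside the range of the other males (1.34% to 1.61%), and C106 did not stand apart there, with the highest HPCd count at 178 and the lowest at 185 of the 5262 tested IDs. Its ACB library also had the highest total, 416869 counts, and the highest share on the 10 most counted IDs, 49.4% against 37.2% to 44.7% in the other males. The part of these features in the DEGs was not tested beyond leaving the rat out.

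**Figure D2:**
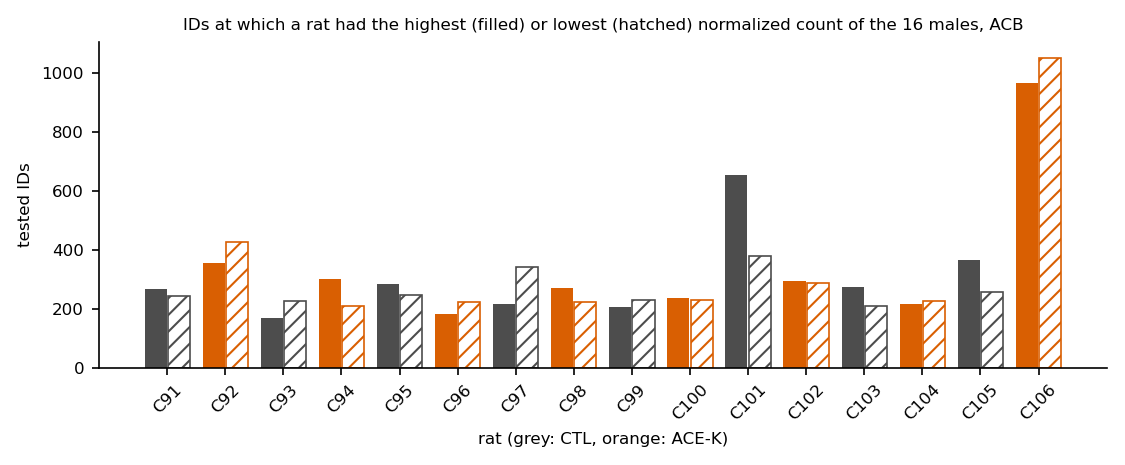
Number of the 5262 tested IDs (vertical axis) at which each male rat had the highest (filled bars) or the lowest (hatched bars) normalized ACB count of the 16 males, for CTL rats (grey) and ACE-K rats (orange). C106 has the highest value at 966 IDs and the lowest at 1051, and C101 has the highest at 655.

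Leaving out C106 changed which higher DEGs were called more than it changed their number. C106 had the highest value of the 8 ACE-K rats at 49 of the 89 higher DEGs (55.1%), while it did so at 24.4% of all tested IDs, and each other ACE-K rat did so at 4 to 8 of these DEGs. Of the 128 lower DEGs, C106 was the lowest ACE-K rat at 41 (32.03%, against 26.8% of all tested IDs). Without C106, 222 of 5158 IDs were DEGs (4.3%), with 82 higher (1.59%) and 140 lower (2.71%). The number of DEGs thus hardly moved, but 44 of the 89 higher DEGs (49.4%) and 94 of the 128 lower DEGs (73.4%) were called in both, with 0 in opposite directions. The shared DEGs were 63.6% of the list with all rats and 62.2% of the list without C106. The biological coefficient of variation, which measures the spread between rats beyond counting error, was 23.6% with C106 and 16.9% without it. No ID passed adjustment without C106 (0 IDs, smallest adjusted p = 0.591 in edgeR, 265 IDs at an unadjusted p under 0.05). DESeq2 without C106 also gave 0, with 168 IDs at an unadjusted p under 0.05.

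The clearest case was ENSRNOG00000062158, which had the largest excess in C106 and is named after its values were seen. It had 465 counts in C106 and from 17 to 62 in the other 15 males. Its log2 fold change of 1.44 (SE 0.43, edgeR adjusted p = 0.975) became 0.28 without C106 (95% confidence interval -0.08 to 0.65, edgeR adjusted p = 0.961). In the HPCd its count in C106, 4480, lay within the range of the other males, 1242 to 5998.

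The lower DEGs leaned on a CTL rat, C101, and on IDs with far more counts in the HPCd. IDs were set in 3 classes by their mean count in the ACB and in the HPCd of the same 16 rats, a division made after the data were seen. Among tested IDs, 667 had more counts in the ACB than in the HPCd and took 63.4% of the ACB counts, 1629 had an ACB count of 1% to 100% of the HPCd count (22.4%), and 2966 had an ACB count under 1% of it (11.1%). The share of tested IDs called was similar, at 3.45%, 3.74% and 4.48% in these classes, beside 4.12% over all IDs. In the class under 1%, 34 DEGs were higher and 99 lower in ACE-K rats, so that 74.4% were lower, beside 59.0% of all DEGs. In the other two classes the split ran the other way, with 40 higher and 21 lower at 1% to 100%, and 15 higher and 8 lower among IDs with more counts in the ACB. The median log2 fold change over all tested IDs of a class was -0.06 under 1%, 0.03 at 1% to 100% and 0.05 above, beside -0.01 over all IDs tested.

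This split was smaller without C101. This rat had the highest count of the 16 males at 606 of the IDs of the class under 1%, against at most 453 in any other, and 14.9% of its counts fell on this class, against 9.66% to 12.5% in the other males. It had counts on 11586 IDs, the most of any male. In the 128 lower DEGs it was the highest CTL rat at 48 (37.5%), against 20.6% of all tested IDs, and each other CTL rat was the highest at 4 to 26. Without C101, 159 of 5099 IDs were DEGs (3.12%), 78 higher (1.53%) and 81 lower (1.59%). Of the list with all rats, 129 DEGs (59.4%) were also called without C101, beside 63.6% without C106. The class under 1% then had 37 higher and 51 lower DEGs and a median log2 fold change of 0.02, the class at 1% to 100% had 31 higher and 21 lower, and the IDs with more counts in the ACB had 10 higher and 9 lower. Without C101 and C106 together, 179 of 4973 IDs were DEGs (3.6%), 82 higher (1.65%) and 97 lower (1.95%). The split then turned among IDs with more counts in the ACB, with 7 higher and 12 lower. The shared DEGs were 99, or 45.6% of the list with all rats. Only 54 of the 217 DEGs (24.9%), 18 higher and 36 lower, were called in each of the 16 fits that left out 1 rat.

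**Figure D3:**
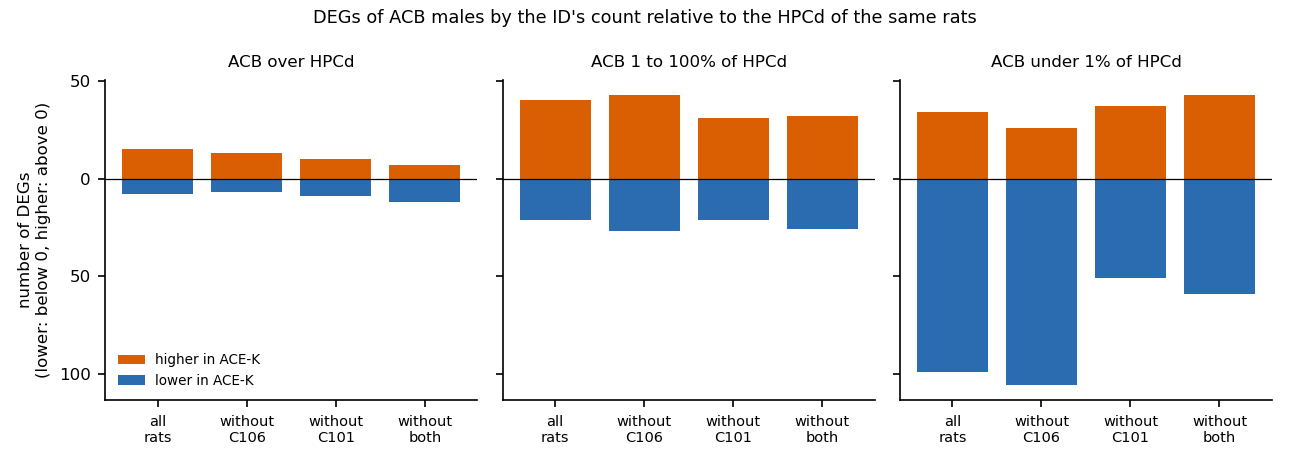
Number of DEGs higher (above 0) and lower (below 0) in ACE-K males (vertical axis) in 3 classes of ID by the ratio of ACB to HPCd counts, for all rats and without C106, C101 or both. The lower DEGs of the class under 1% are 99 with all rats, 51 without C101 and 59 without C101 and C106.

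Among the IDs tested in the ACB, the order by count was unlike that in the HPCd of the same rats. Across these 5262 IDs, which were kept for their ACB counts, Spearman's rho between the mean ACB and the mean HPCd count was -0.03, while between the CTL and ACE-K means of the ACB it was 0.951. Over all IDs with a count in either region, rho between the regions was 0.702. These are descriptions across IDs, which are not independent replicates and share the libraries. At the 4316 IDs with at least 1000 counts per rat in the HPCd, the median ACB count was 0.180% of the HPCd count (5th to 95th percentile 0.0589% to 1.35%), where the HPCd total of a rat was a median of 60.1 times its ACB total. The most counted ACB ID, ENSRNOG00000029042, took 18.7% of the ACB counts and 0.00928% of the HPCd counts. Tissue, library and counting cannot be told apart in this difference, since each region has 1 table. Whether the counting read the strand, and whether the same setting was used for both tables, is not given in the sources used here. Each ACB value is therefore the count on the listed ID, and its part in the expression of that gene was not tested.

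**Figure D4:**
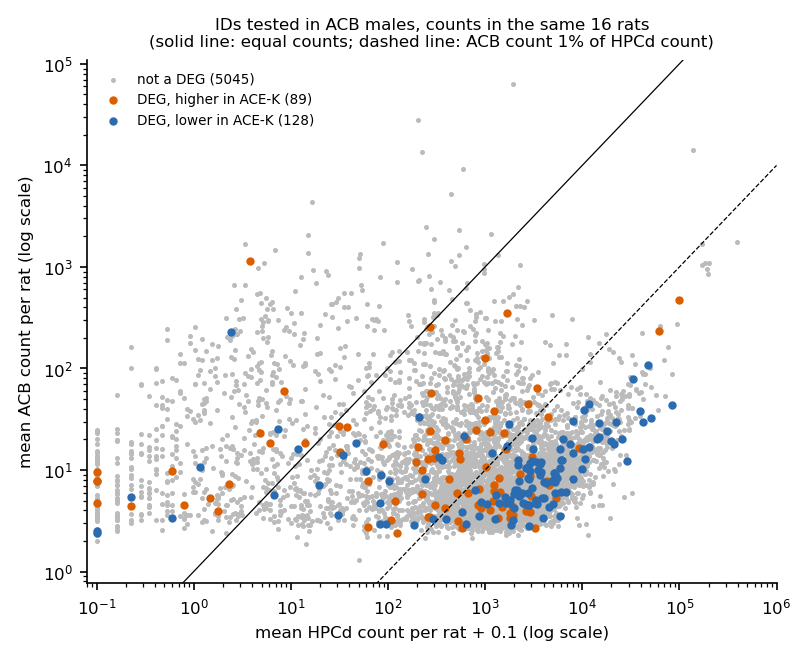
Mean ACB count (vertical axis, log scale) against mean HPCd count plus 0.1 (horizontal axis, log scale) per male rat for the 5262 IDs tested in the ACB, in which the 89 higher and 128 lower DEGs are coloured. The solid line marks equal counts and the dashed line an ACB count of 1% of the HPCd count, below which 99 of the 128 lower DEGs lie.

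The 10 most counted ACB IDs did not differ between the groups at an unadjusted p under 0.05, which leaves the changes inside their intervals undecided. The 95% confidence interval for ENSRNOG00000029042 ran from -0.26 to 0.20 on the log2 scale around -0.03, and its level was 185303 ± 46101 CPM in ACE-K rats and 189741 ± 23078 CPM in CTL rats (SD, n = 8 each). ENSRNOG00000020346, with 3.93% of the counts, had an interval from -0.06 to 0.28, and ENSRNOG00000019394, with 1.55%, from -0.17 to 0.18. The widest interval of the 10 was that of ENSRNOG00000024259, from -0.69 to 0.17. Without C106, 2 of the 10 reached an unadjusted p under 0.05 and neither a log2 fold change of 0.4, namely ENSRNOG00000048353 (log2 fold change 0.36) and ENSRNOG00000014287 (0.20).

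One of the DEGs with many counts, ENSRNOG00000028381, fell on separate levels among the males and is named for that after its values were seen. CTL rats had from 87 to 454 counts (median 333.5) and ACE-K rats from 74 to 329 (median 92). In CPM, C93 and C97 lay at 231 and 332 and the other CTL rats from 938 to 1321, while C96 and C104 lay at 886 and 1027 and the other ACE-K rats from 206 to 353. No male lay between 353 and 886 CPM. The log2 fold change was -1.04 (SE 0.31, 95% confidence interval -1.68 to -0.41, edgeR adjusted p = 0.975), and -0.99 without C106. In the HPCd this ID had from 1 to 6 counts in CTL and from 0 to 4 in ACE-K rats, too few to test. In ACB females, ACE-K rats had from 75 to 138 counts and CTL rats from 76 to 240. In CPM, the CTL females C107 and C109 lay at 635 and 733, where no male lay. The other females lay from 230 to 396, which overlapped the lower level of the males, and no female reached the upper level of the males.

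**Figure D5:**
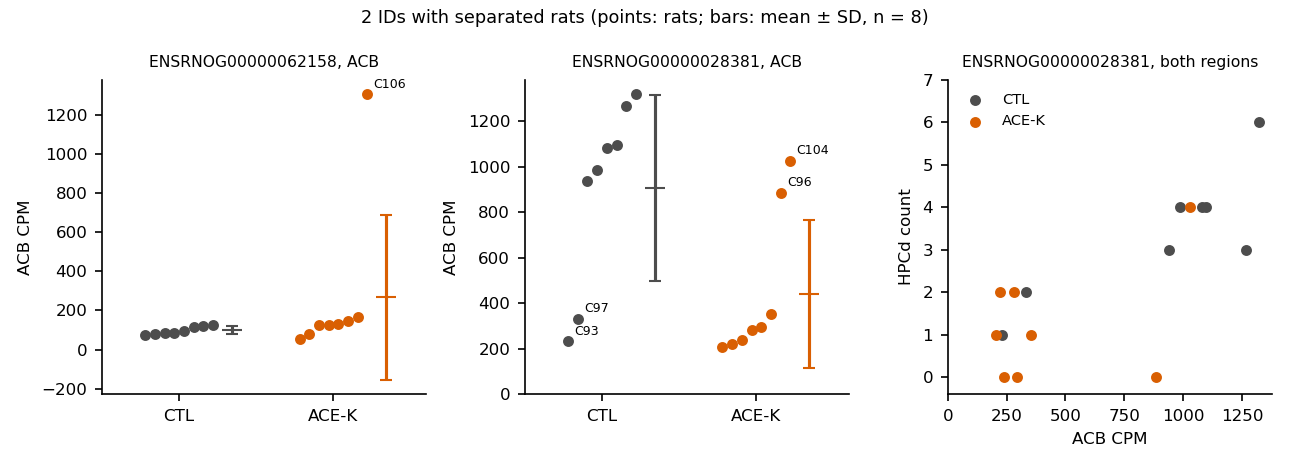
Left and middle, ACB level in CPM (vertical axis) of ENSRNOG00000062158 and ENSRNOG00000028381 in each male rat by group (points), with mean ± SD (n = 8). Right, HPCd count of ENSRNOG00000028381 (vertical axis) against its ACB CPM (horizontal axis) in the same rats. C106 lies at 1305 CPM for the first ID, and for the second no male lies between 353 and 886 CPM.

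The filter on low counts decided whether any ID passed adjustment. With all 17817 IDs that had a count in any male, 4 had an adjusted p under 0.05 in edgeR (0.0225%), ENSRNOG00000062158, ENSRNOG00000028381, ENSRNOG00000055160 and ENSRNOG00000017858. ENSRNOG00000055160 was under the filter, with 60 counts in C106 and from 0 to 7 in the other males. ENSRNOG00000017858 had from 120 to 566 counts in ACE-K rats and from 134 to 300 in CTL rats, with a log2 fold change of 0.70. Without C106, the unfiltered adjusted p was 0.926 for ENSRNOG00000055160 and 0.732 for ENSRNOG00000062158, and stayed under 0.05 for ENSRNOG00000028381 (4.58e-15) and ENSRNOG00000017858 (0.00167). With the filter, the adjusted p of ENSRNOG00000028381 and of ENSRNOG00000017858 was 0.975. For ENSRNOG00000028381 with all rats, the log2 fold change in edgeR was -1.045 with and without the filter. Its unadjusted p in edgeR was 0.00198 with the filter and 4.67e-13 without it. DESeq2 with the filter gave it an unadjusted p of 0.0187 with all rats and 0.0307 without C106. Its small p without the filter thus went with no larger difference between the groups, whose counts overlapped.

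Measures of the whole library did not differ between ACE-K and CTL males beyond the spread between rats. Total counts were 341138 ± 34872 in ACE-K and 341224 ± 30194 in CTL rats (SD, n = 8 each, 2-sided exact permutation test, p = 0.997). The share of counts on the 10 most counted IDs was 42.2% ± 3.97 and 42.5% ± 1.65 (exact permutation p = 0.887). The share on IDs of the class under 1% was 10.9% ± 0.571 and 11.2% ± 1.73 (exact permutation p = 0.653), and without C101 the CTL mean was 10.7% ± 0.972 (n = 7). Body weight at postnatal day 80 had an exact permutation p of 0.183. The smallest adjusted p over the 6 measures tested was 0.997.

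For the 4 IDs with the smallest p, the response to ACE-K was also compared between sexes, in a fit of all 32 ACB rats. Over 5950 IDs, 511 reached an unadjusted p under 0.05 for the Treatment × Sex interaction (8.59%) and 0 an adjusted p under 0.05 in edgeR (smallest 0.134). The females had log2 fold changes of -0.48 for ENSRNOG00000037299, -0.13 for ENSRNOG00000015941 and 0.15 for ENSRNOG00000017163, against 0.83, 0.73 and -1.20 in males. Since these IDs were chosen by their p in males, the difference between sexes is given as a description.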

How the data were processed

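Members and lists were chosen with earlier results of these data known. The authors' reads passed through FastQC and Trimmomatic, then STAR for alignment to Rnor6.0, and HTSeq for counting per gene. Versions, annotation release and strand setting are not given in the sources used here. The deposited tables hold raw counts, unnormalized, with 1 column per rat, assigned by the animal number in the labels. Between 302935 and 416869 counts per ACB male limit precision at low counts. The paper states a number of reads per sample far above these totals. Why so few ACB reads were counted on IDs was not tested. The 5 HTSeq summary rows of the HPCd table were left out.

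Counts were normalized by TMM, and IDs that reached a normalized count of 5 in 3 or more rats entered edgeR's quasi-likelihood test (edgeR 4.0.16, R 4.3.3) with Benjamini-Hochberg adjustment. The study used DESeq2 (here 1.42.0, an alternative) and removed 1 ACB ACE-K sample, which its text does not name. Here all were kept and C106 was left out as an alternative. Measures per rat were compared by exact permutation (scipy 1.17.1). The test was checked on simulated counts. The rule named the 2 higher and 2 lower DEGs with the smallest p and the 10 most counted IDs, since IDs were not paired with symbols, and other IDs are said to be named after their values were seen. The gene and marker lists were not applied for the same reason. Replicates of a group differed by more than sampling noise (lowest chi-square per degree of freedom 1.58).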

Additional observations from a re-analysis of the deposited data

Results flagged for a closer look

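Dixon's ratio was computed in 24 groups of 8 values, of which chance marks about 1 in 20, and it marked C106 among the ACE-K rats at 2. Its total of 416869 counts was separated from the next, 357111, by 0.544 of the group's range, above the critical value. Its level of ENSRNOG00000062158, 1305 CPM, was separated from the next, 167 CPM, by 0.910 of the range. That ID was named for its excess in C106, so the second value restates why it was chosen and adds nothing to the first.

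Of the 6 IDs chosen for their values in males, 5 had an unadjusted p under 0.05 for the Treatment × Sex interaction in edgeR on the 32 ACB rats, and 0 passed adjustment. That choice favours a difference from females, so the values are a description and do not show that the sexes differ. The log2 fold change of females minus that of males was -1.34 for ENSRNOG00000037299 (adjusted p = 0.134), -0.88 for ENSRNOG00000015941 (adjusted p = 0.415) and 1.34 for ENSRNOG00000017163 (adjusted p = 0.269). It was 3.19 for ENSRNOG00000049423 (adjusted p = 0.134), on from 0 to 8 counts per rat, and -1.66 for ENSRNOG00000062158 (adjusted p = 0.280), which without C106 no longer reached an unadjusted p under 0.05.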

How the results depend on the processing

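With no filter, 902 of the 17817 IDs tested were DEGs (454 higher, 448 lower), and 4 had an adjusted p under 0.05. With at least 10 counts in every rat, 1230 IDs were tested and 32 were DEGs (17 higher, 15 lower). Both the number and the share of DEGs were then lower than in the main fit (217 of 5262, 4.12%). An unadjusted p under 0.05 in edgeR was reached by 58 of the 1230, beside 232 of the 5262 in the main fit. The fold threshold kept 32 of the 58 and 217 of the 232. DESeq2 without C106 gave 137 DEGs (50 higher) among 5158 IDs, and a single fit of the 4 ACB groups gave 302 among 5950, with 140 higher. Leaving out each rat in turn gave from 159 (without C101) to 269 DEGs (without C94) and from 81 (without C101) to 166 lower (without C96), with 0 IDs at an adjusted p under 0.05 in each. In the class of IDs under 1% of the HPCd count, lower DEGs ranged from 51 (without C101) to 128 (without C96), and were 59 without C101 and C106, and in the other classes together from 19 (without C105) to 47 (without C94). The cause was not tested. Of the IDs named by the rule, all 4 kept their direction and an unadjusted p under 0.05 under each alternative in which they passed the filter. They were chosen for the smallest p in these same rats, so this describes them and is no independent check. ENSRNOG00000049423 passed the filter in 13 of the 16 fits that left out 1 rat, and not in those without C91, C97 or C103. These are CTL rats, with 8, 6 and 5 counts on it, where no ACE-K male had more than 2. This ID thus entered the test only through the group in which it was higher, so its place among the lower DEGs is no support for a difference. Neither it nor ENSRNOG00000017163 had at least 10 counts in every rat. ENSRNOG00000062158 did not reach an unadjusted p under 0.05 in DESeq2 or without C106. Its log2 fold change in DESeq2 was 0.26 with all rats and 0.28 without C106. The DESeq2 fit ran at its default settings, which can replace an outlying count before the test. Whether the count of C106 was replaced in the fit of all rats was not tested. DESeq2's size factors, leaving out the 10 most counted IDs, and body weight as a covariate kept the DEG counts within 1.5 times. No paired analysis was possible because each rat received 1 treatment, so ACE-K and CTL rats share no animal. The library number and the exclusion of IDs that overlap on the opposite strand were not run, since the ACB columns carry no library number and the IDs could not be placed on the genome. The number of counts on IDs limits calls to large changes: under 10 counts the median SE was 0.37 on the log2 scale.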
